A study of Mus musculus with 2 samples.

Results

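The γδ T cells of mouse liver were examined in a single-cell data set of CD45+ liver leukocytes that recorded mRNA and 49 surface antibodies in the same cells. They were the cells that the authors' filtered cell table named as γδ T cells, and they numbered 209 of 11929 cells. All 209 belonged to 1 of the 30 clusters of that table, and no other cell lay in that cluster. Of these cells, 192 came from WT mice and 17 from TG mice, so that the description below was made within WT against the NKT cells (2232 cells), the CD8αα T cells (194 cells) and the CD4 T cells (734 cells).

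WT mice were C57BL/6. TG mice (dnTGFβRII) carried a dominant negative TGF-β receptor type II transgene driven by the CD4 promoter, on the same background, and were used as a model of primary biliary cholangitis, an autoimmune disease of the small bile ducts. The labels give an age of 10 weeks, whereas the study's methods describe slightly younger mice. Cells were captured in microwells with barcoded beads in 2 libraries, 1 holding TG cells together with cells of IFN-γ ARE-Del-/- mice and 1 holding WT cells together with cells of p40-/-IL-2Ra-/- mice. Livers of several mice may have been pooled, and the number of mice was not given in the sources used here. Each genotype was therefore 1 sample and no p-value is given, and an effect of the genotype and an effect of the capture cannot be told apart. All intervals in parentheses are exact 95% intervals that cover counting error only.

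γδ T cells carry a T cell receptor made of a γ and a δ chain instead of the α and β chains of conventional T cells. In mice, many of those that settle in barrier tissues and in the liver leave the thymus already committed to make IL-17A, under transcription factors such as SOX13 and MAF, and respond to IL-23 and IL-1 without a need for antigen. Others make IFN-γ instead and depend on T-bet (Tbx21). NKT cells, CD8αα T cells and NK cells of the liver are the classical bearers of the second, type 1, programme.

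The γδ T cells were 192 of 7282 WT cells, or 2.64% (2.28 to 3.03), and 17 of 4647 TG cells, or 0.366% (0.213 to 0.585). As a share of the T cells they were 4.60% (3.99 to 5.28) in WT and 0.798% (0.465 to 1.27) in TG. The WT cells held 531179 unique mRNA molecules (UMIs) in all. The median was 2406.5 UMIs a cell, between 1074 and 12963, close to CD4 T cells (2437.5) and below NKT cells (2860.5) and CD8αα T cells (2702). The median share of mitochondrial UMIs was 7.07% in the γδ T cells, 5.21% in NKT cells, 4.20% in CD8αα T cells and 6.95% in CD4 T cells. The doublet caller Scrublet marked 8 of the 192 cells. Levels below are CPM, the UMIs of a gene in each 1000000 UMIs of the summed cells of a class, so they compare 1 gene between classes and not genes with each other.

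The label was set beside its markers. The cells had been clustered on mRNA that includes these genes, so their presence in the class is no test of the label. Trdc, the constant segment of the δ chain, was found in 137 of the 192 cells, or 71.4% (64.4 to 77.6), against 3.63% of NKT cells, 1.77% of CD4 T cells and 0.602% of B cells, which should lack it. CD8αα T cells were the exception among the compared classes, with a Trdc UMI in 42.3% (35.2 to 49.6). Of classes not compared, NK cells held one in 17.1% (14.2 to 20.3) and CD8αβ T cells in 5.01%. After each cell had been thinned to 1000 UMIs, the share was 58.3% of γδ T cells and 34.5% of CD8αα T cells. Sox13 was detected in 110 γδ T cells, Il1r1 in 95, Cd163l1 in 78 and Il17a in 60. The summed markers of other cell types were low. B cell markers summed to 309 CPM (263 to 360), against 217 in NKT cells, 377 in CD4 T cells and 11123 in B cells, all 5 of them being detected. Of the myeloid markers 24 UMIs were counted, with Cd14 at 0. Of the haemoglobin genes 1 UMI was counted, against 2400 UMIs in the CD8αα T cells, and the detected hepatocyte and endothelial markers, Alb, Apoa1 and Clec4g, were at 0 in the 192 cells. Cd79b, a chain of the B cell receptor complex, stood apart and reached 71.5 CPM in 28 γδ T cells and 2.57 CPM in NKT cells. The part of these markers in the results below was not tested, but without cells holding at least 2 UMIs of B cell, myeloid or haemoglobin markers the median log2 ratio of the type 17 genes over NKT cells was 5.79 instead of 5.57.

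The type 17 programme was the first question. Il17a, Il17f and Il23r are shown with the bases before their start sites, because the transcription factor RORα binds the letters AGGTCA and because the 3 genes belong to the type 17 programme described next. The runs below are the 250 bases before the RefSeq start, 5′ to 3′ on the gene's own strand, in build GRCm38.p6, with AGGTCA or its reverse complement TGACCT in capitals. They lie at chr1:20730655-20730904 (plus strand) for Il17a, chr1:20784271-20784520 (minus strand) for Il17f and chr6:67491856-67492105 (minus strand) for Il23r.
Il17a: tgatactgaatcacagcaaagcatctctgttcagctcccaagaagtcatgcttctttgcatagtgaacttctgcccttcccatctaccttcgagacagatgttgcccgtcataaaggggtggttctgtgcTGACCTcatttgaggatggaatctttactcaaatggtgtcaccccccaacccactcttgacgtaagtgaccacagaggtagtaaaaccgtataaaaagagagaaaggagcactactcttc
Il17f: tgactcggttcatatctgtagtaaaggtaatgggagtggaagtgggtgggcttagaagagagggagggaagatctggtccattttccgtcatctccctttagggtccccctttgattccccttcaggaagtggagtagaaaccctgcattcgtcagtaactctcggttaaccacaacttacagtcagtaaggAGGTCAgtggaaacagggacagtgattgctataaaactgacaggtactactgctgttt
Il23r: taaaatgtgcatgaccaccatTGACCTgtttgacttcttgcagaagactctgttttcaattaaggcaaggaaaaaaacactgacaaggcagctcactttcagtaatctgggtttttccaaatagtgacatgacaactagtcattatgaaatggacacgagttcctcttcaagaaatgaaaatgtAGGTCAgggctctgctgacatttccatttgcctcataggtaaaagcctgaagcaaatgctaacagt
Il17a held 1 match, 120 bases before the start, and Il17f held 1, 58 bases before it. Il23r held 2, at 229 and 66 bases. Such a match stood in 4607 of 32851 windows of this length (14.0%), and in 4260 of 27025 genes (15.8%) when any of a gene's windows was counted. Of the type 17 list below, 7 of the 21 genes with a window held one (33.3%), against 2 of 19 genes of the type 1 list (10.5%). Most genes of the type 17 list thus held none, and the 3 shown are not typical of it. A match of letters is a description and does not show that a factor binds there.

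Il17a, the hallmark cytokine, had 322 (275 to 374) CPM in γδ T cells, in 60 of 192 cells. Of its 171 UMIs, 25 lay in 1 cell without a Trdc UMI, so this interval and that of its ratio below are too narrow. NKT cells held 1 Il17a UMI in 2232 cells, CD8αα T cells none and CD4 T cells 13.9 (9.14 to 20.2) CPM. The log2 ratio over CD4 T cells was 4.51 (3.95 to 5.18), and the level was at least 59.0-fold higher than in CD8αα T cells, taking 3 UMIs over the summed class as the floor. Il17f, its close relative, was found in 14 cells at 32.0 (18.6 to 51.2) CPM, with 8.73 CPM in CD4 T cells. Il22, another cytokine of the programme, had 9 UMIs in 5 cells, and 8 of these UMIs lay in 4 cells without a Trdc UMI. Tnf, an inflammatory cytokine outside the programme, was detected in 85 cells at 320.0 (274 to 372) CPM and was higher than in NKT cells by 2.22 (1.95 to 2.47) on the log2 scale.

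Of the regulators and signalling genes of the programme, some were nearly restricted to the γδ T cells. Sox13, a regulator of the type 17 γδ lineage, was at 367 (317 to 422) CPM and did not exceed 1.82 CPM in the 3 comparators. Blk, a Src family kinase that these cells share with B cells, was at 851 (774 to 933) CPM in 148 cells, above the 314 CPM of the B cells themselves and the 1.67 CPM of NKT cells. Other genes of the list were widely shared instead. Maf was at 1017 (933 to 1106) CPM in γδ T cells, with 337 in NKT cells, and the log2 ratio was 1.60 (1.46 to 1.73). Rora, which encodes RORα, was 0.93 (0.75 to 1.11) over NKT cells on the same scale and thus inside the 2-fold limit. Batf, another factor of the programme, had a log2 ratio of 0.64 (0.04 to 1.15).

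The receptors that start the programme were restricted to different degrees. Il1r1, the IL-1 receptor, had 356 (307 to 410.3) CPM in 95 γδ T cells and 0.303 CPM in NKT cells. Il23r, the IL-23 receptor, had 84.7 (61.8 to 113) CPM in 39 γδ T cells and no UMI in 2232 NKT cells, at least 186-fold higher. Il18r1, a subunit of the IL-18 receptor, was found in 150 γδ T cells and was 2.93 (2.74 to 3.13) over NKT cells. Ccr6, a chemokine receptor that guides type 17 cells to epithelia, was at 258 (217 to 305) CPM, against 0.303 in NKT cells and 42.1 in CD4 T cells. The CD4 T cells thus held the highest comparator level of Il17a, Il1r1, Il23r and Ccr6.

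**Figure D1:**
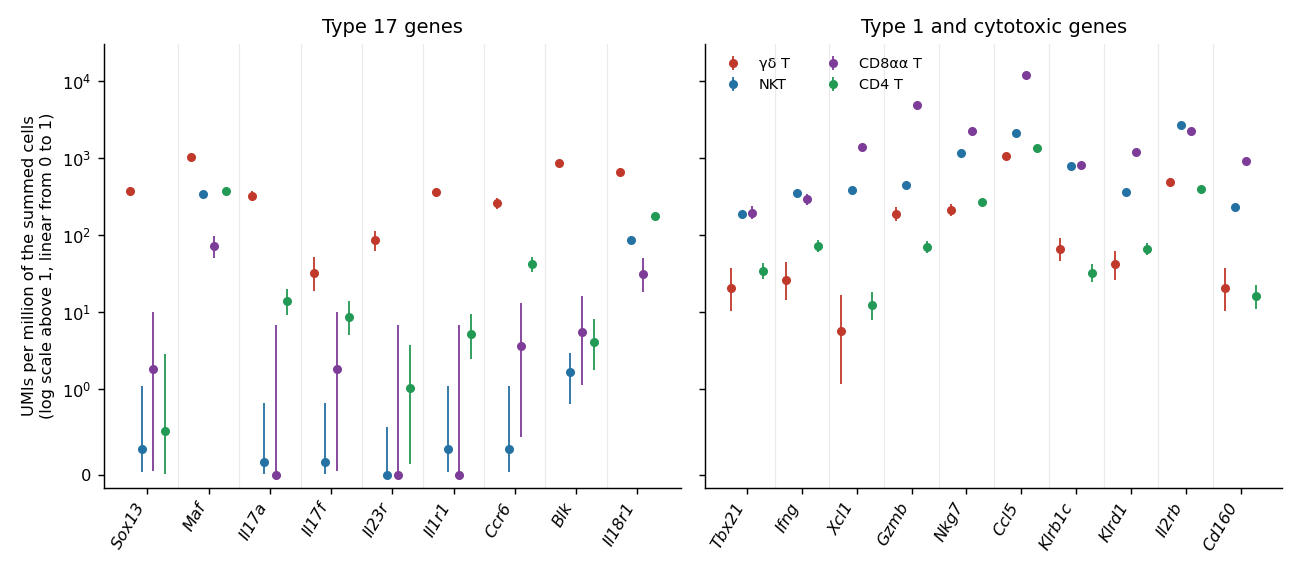
CPM (vertical axis) for 9 type 17 genes (left) and 10 type 1 and cytotoxic genes (right) in WT γδ T cells, NKT cells, CD8αα T cells and CD4 T cells. Points are the summed class and bars the exact 95% Poisson interval. Il17a is at 322 CPM in the γδ T cells and Ifng at 26.4 CPM, while NKT cells show 0.151 and 354 CPM.

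Over NKT cells, 20 of the 25 listed type 17 genes had at least 50 UMIs in both classes together, and 17 of them were at least 2-fold higher in γδ T cells, with a median log2 ratio of 5.57. Among all 8572 genes with that many UMIs, 578 (6.74%) were at least 2-fold higher and 843 (9.83%) at least 2-fold lower, with a median of -0.05. Over CD8αα T cells the count was 17 of 19, with a median of 6.42, against 264 of 3946 genes (6.69%) higher and 359 (9.1%) lower. Over CD4 T cells it was 17 of 20, with a median of 3.89, against 405 of 6144 genes (6.59%) higher and 290 (4.72%) lower. No type 17 gene was 2-fold lower in the γδ T cells in these comparisons. Under TMM scaling the median of all genes over CD4 T cells moved from 0.05 to -0.07 and the split became 325 higher and 385 lower, and with totals that left out ribosomal and mitochondrial genes it became 334 and 367. Over CD8αα T cells the split became 288 higher and 318 lower under TMM and 317 and 305 with the latter totals. The cells had been clustered on these genes, so these ratios describe the cluster and are no test of it.

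The genes furthest above all 3 comparators were ranked by their smallest log2 ratio. The first 20 held genes of the type 17 list and several outside it. Of the genes described next, Cd163l1, 5830411N06Rik and Serpinb1a belong to the list. Cd163l1, a scavenger receptor also known as SCART1, had 968 (886 to 1055) CPM and a smallest log2 ratio of 8.42. It stood first in this ranking, but its place above Abi3bp and Fam83a rests on the 0.5 UMIs added where a comparator had none. Its relative 5830411N06Rik, known as SCART2, had 544 (483 to 611) CPM and 6.30. Abi3bp, a matrix-binding protein, had 252 (211 to 299) CPM in 80 cells and no UMI in the CD8αα and CD4 T cells. Mmp25, a membrane-bound metalloproteinase, was found in 137 of the 192 cells at 623 (558 to 694) CPM, against 1.82 in NKT and 18.5 in CD4 T cells. Cryba4, a lens crystallin, was at 173 (139.6 to 212) CPM in 49 cells and at most 1.03 in the comparators. Pde5a, which degrades cyclic GMP, was at 119 (91.1 to 152) CPM and at most 1.03 elsewhere. Serpinb1a, an inhibitor of serine proteases, had 318 (272 to 369.9) CPM, and Scpep1, a carboxypeptidase, 452 (396 to 513) CPM, both being present in B cells as well (205 and 127 CPM). Nr1d1, the clock repressor REV-ERBα, had 286 (242 to 335) CPM and a smallest log2 ratio of 3.38. The 20 also included Sox13, Blk, Fam83a, Il1r1, Pxdc1, Coro2b, Tns4, Il17a, Plxnd1 and Tmem176a. Of these, Fam83a had no UMI in any of the 3 comparators and was found in 34 γδ T cells. Fam83a and Pxdc1 were more common in the γδ T cells without a Trdc UMI, described below. They were found in 19 and 30 of those 55 cells, and in 15 and 18 of the 137 cells with one.

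The type 1 programme was low against NKT and CD8αα T cells, and over CD4 T cells its genes went both ways. Ifng had 26.4 (14.4 to 44.2) CPM in γδ T cells, in 10 of 192 cells, against 354 in NKT, 291 in CD8αα and 71.9 in CD4 T cells. Tbx21, its master regulator, was at 20.7 (10.3 to 37.1) CPM with a log2 ratio of -3.11 (-4.18 to -2.33) over NKT cells. Xcl1, a chemokine for cross-presenting dendritic cells, had 3 UMIs in γδ T cells, 386 CPM in NKT cells and 1369 CPM in CD8αα T cells, a log2 ratio of -5.87 (-8.37 to -4.55) over NKT cells. The NK receptor genes Klrb1c, which encodes NK1.1, and Klrd1, which encodes CD94, were -3.55 (-4.10 to -3.10) and -3.09 (-3.80 to -2.52) over NKT cells on the log2 scale. Il2rb, the β chain of the IL-2 and IL-15 receptors, was found in 112 γδ T cells but was lower than in NKT cells, with a log2 ratio of -2.44 (-2.63 to -2.27). Gzmb, a granzyme, was found in 40 γδ T cells at 188 (153 to 229) CPM, below NKT cells and above the 69.9 CPM of CD4 T cells. Gzma, another granzyme, had 103 UMIs in 17 γδ T cells and was higher than in NKT cells by 2.26 (1.91 to 2.59), a sign that turned once cells with B cell, myeloid or haemoglobin UMIs had been left out. Over NKT cells 24 of the 25 listed genes could be compared, of which 5 were at least 2-fold higher and 14 lower, with a median of -2.37, where 6.74% of all genes were higher and 9.83% lower. The 5 were Gzma, Gzmk, Eomes, Ccl3 and Ccl4, and the log2 ratio of Eomes fell from 1.04 to 0.52 and that of Gzmk from 1.98 to 0.58 in thinned cells, while that of Ccl4 went from 1.13 to 0.56 without cells holding B cell, myeloid or haemoglobin UMIs. Over CD8αα T cells all 23 comparable genes were lower, with a median of -3.73, against 9.1% of all genes. Over CD4 T cells 6 of 15 were higher and 2 lower, with a median of 0.27, against 6.59% and 4.72% of all genes.

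How often single cells carried both programmes depended on the genes counted and on depth. With all 25 genes of each list, 178 of the 192 γδ T cells (92.7%) held at least 1 UMI of both, and so did 94.1% of NKT cells, with shared genes such as Maf and Ccl5 counted. With 6 and 7 defining genes of the lists (Sox13, Il17a, Il17f, Il23r, Il1r1 and Ccr6, and Tbx21, Eomes, Ifng, Xcl1, Klrb1c, Klrd1 and Ncr1), which were picked after the data had been seen, 135 γδ T cells (70.3%, 63.3 to 76.7) held type 17 genes alone. Another 37 (19.3%) held both, 5 held type 1 genes alone and 15 held neither. In cells thinned to 1000 UMIs, 119 held type 17 genes alone, 13 (6.77%) both, 9 type 1 genes alone and 51 neither. Without thinning, both were held by 0.358% of NKT cells, 1.03% of CD8αα T cells and 0.954% of CD4 T cells. NKT cells were the reverse, with 96.6% holding type 1 genes alone. In CD4 T cells, 7.36% held type 17 genes alone.

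The survival, homing and checkpoint genes gave a mixed picture. Il7r, the receptor for the survival cytokine IL-7, was at 2056 (1936 to 2181) CPM in 176 of 192 cells and was 1.92 (1.82 to 2.02) over NKT cells. Of 19 comparable cytokine receptor genes, 5 were at least 2-fold higher than in NKT cells and 6 lower, with a median of 0.09, where 6.74% of all genes were higher and 9.83% lower. Il12rb2, the IL-12 receptor subunit of type 1 cells, had 1 UMI in γδ T cells and 93.3 CPM in NKT cells. Among the homing genes 7 of 21 were higher and 6 lower than in NKT cells, with a median of 0.40, against the same shares of all genes. Itgae, which encodes CD103 and binds E-cadherin on epithelia, was at 181 (146 to 221) CPM against 1.36 in NKT cells. Ccr2, a receptor for inflammatory monocyte chemokines, was at 802 (728 to 882) CPM and 1.02 (0.86 to 1.16) over NKT cells. S1pr1, the receptor for egress from tissue, was 4.03 (3.62 to 4.45) over NKT cells, and Cxcr6, the receptor that holds NKT cells in the liver sinusoids, was 0.02 (-0.14 to 0.17). The integrin gene Itga1, which encodes CD49a, went the other way, with 11.3 CPM against 111 in NKT and 516 in CD8αα T cells. Icos, a costimulatory receptor, had 717 (647 to 793) CPM and was 1.33 (1.16 to 1.49) over NKT cells, but with γδ T cells that held a Trdc UMI alone this log2 ratio was 0.19. Pdcd1, which encodes the inhibitory receptor PD-1, was sparse at 58.4 (39.7 to 82.8) CPM in 27 cells, against 6.66 CPM in NKT cells. Of 10 comparable checkpoint and costimulatory genes, 3 were at least 2-fold higher than in NKT cells and 4 lower, with a median of 0.28. Over CD8αα T cells 2 of 7 were higher and 4 lower, and over CD4 T cells 2 of 9 were higher and 5 lower, both with a median of -1.47, where 6.69% and 6.59% of all genes were higher and 9.1% and 4.72% lower. Tnfrsf18, which encodes the costimulatory receptor GITR, was at 32.0 CPM against 176 in NKT, 129 in CD8αα and 90.9 in CD4 T cells, and the inhibitory receptor gene Btla was -2.13 (-4.19 to -0.93) over NKT cells on the log2 scale. Of the genes of lipid and sugar use, 0 of 15 were 2-fold higher than in NKT cells and 2 were lower, near the 6.74% and 9.83% of all genes. The 2 were Slc2a1 and Slc2a3, which encode glucose transporters, and in thinned cells their log2 ratios were -0.41 and -0.63 and thus inside the 2-fold limit.

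Genes of receptor signalling mostly lay near NKT cells, and some lay below them. Cd3d, Cd3e and Cd3g, the shared chains of the receptor complex, were all within 2-fold of NKT cells (-0.20, -0.10 and -0.09 on the log2 scale). Cd247, the ζ chain, was higher by 1.36 (1.11 to 1.60). Lck, the kinase that starts receptor signalling, was at 252 (211 to 299) CPM, against 773 in NKT, 882 in CD8αα and 753 in CD4 T cells, with a log2 ratio of -1.61 (-1.87 to -1.37) over NKT cells. Cd5 and Cd6, which tune receptor signals, were -1.79 and -2.71, and the costimulatory receptor Cd28 was -2.13. Tcf7, a factor of T cell self-renewal, was higher than in NKT cells by 2.17 (1.98 to 2.37). Zbtb16, the factor PLZF that marks innate-like T cells, was at 151 (119 to 187) CPM in γδ T cells and 107 in NKT cells, and at 7.27 and 6.16 in CD8αα and CD4 T cells. Of the 24 genes of this signalling list 2 were at least 2-fold higher and 5 lower than in NKT cells, with a median of -0.25, and the 2 are near the 6.74% of all genes that were higher, where 9.83% were lower.

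The genes furthest below each comparator were ranked by the log2 ratio over that comparator alone. Below NKT cells, Dtx4, a regulator of Notch signalling, Entpd1, which encodes the ectonucleotidase CD39, and Ddx43 had no UMI in the 192 cells, at 67.8, 63.4 and 41.2 CPM in NKT cells. Izumo1r, which encodes a folate receptor found on regulatory T cells, had 2 UMIs in 1 γδ T cell and 208 CPM in NKT cells. Below CD8αα T cells the lowest were NK receptor genes of the Ly49 family, of which Klra9 and Klra6 had no UMI and Klra5 and Klra7 had 2 each, besides Xcl1. These family members are near copies of each other, and the split of reads between them is uncertain. Below CD4 T cells, Foxp3, the factor of regulatory T cells, had no UMI against 119 CPM.

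Surface antibodies were compared as centred log ratios, the natural logarithm of 1 plus an antibody's UMIs over the geometric mean of all antibodies of that cell, so that 0 stands for no UMI, by their medians over cells. Of the 49 antibodies, 13 had a higher median in γδ T cells than in all 3 comparators and 12 a lower one, and 3 were higher than all of them by at least 0.5. These were CD90.2, a pan-T cell glycoprotein, with a median of 5.42 (quartiles 4.80 and 5.73), CD44, the activation marker, with 4.34 (quartiles 4.10 and 4.56), and CD103 with 2.04 (quartiles 1.05 and 2.79). The medians of CD103 in NKT, CD8αα and CD4 T cells were 0.23, 0.20 and 0.24, and the Itgae mRNA above gave the same order of γδ T cells over NKT cells. CD49a was 0.35 in γδ T cells against 1.95 in NKT cells and 2.97 in CD8αα T cells. NK1.1 was 0.46 against 1.07 in NKT cells. CD5 was 1.81, between CD8αα T cells (1.24) and NKT cells (3.11). CD3 was 1.04, above the 0.49 of NKT cells and near the 1.11 of CD4 T cells. The panel held no antibody against the γδ receptor itself. The TCRβ antibody had a median of 0.97 (quartiles 0.68 and 1.43), against 1.65 in NKT, 1.04 in CD8αα and 3.03 in CD4 T cells.

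**Figure D2:**
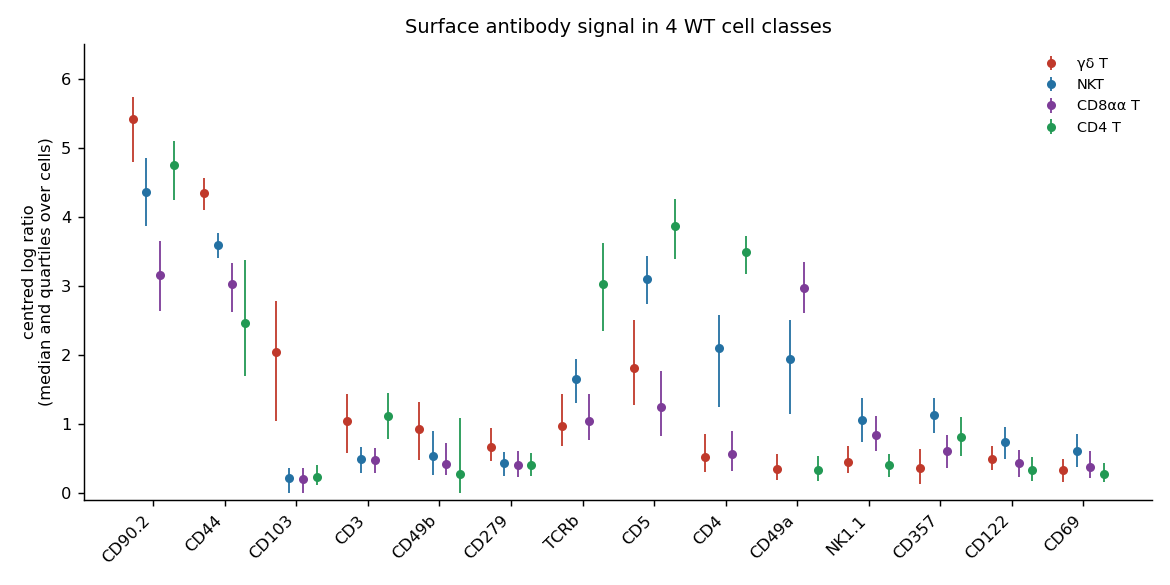
Centred log ratio (vertical axis) of 14 surface antibodies in WT γδ T cells, NKT cells, CD8αα T cells and CD4 T cells. Points are medians and bars run from the lower to the upper quartile over cells, which is a spread over cells of 1 sample. CD103 lies at 2.04 in γδ T cells and at or below 0.24 in the other classes.

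The receptor genes were then followed within the γδ T cells. Tcrg-C1 had 635 UMIs in 162 cells, Tcrg-C2 364 UMIs in 118 cells and Tcrg-C4 155 UMIs in 81 cells. The Tcrg-C1 and Tcrg-C2 transcripts are 96.0% identical over their alignment, so the split of reads between them is uncertain, whereas Tcrg-C1 and Tcrg-C4 are 71.3% identical. Constant segments of the γ chain were common in other classes too, since 38.7% of NKT cells and 56.7% of CD8αα T cells held Tcrg-C1. Variable segments were sparse. Trgv2 was found in 49 γδ T cells (25.5%), Trdv4, a δ segment, in 27 (14.1%, 9.48 to 19.8), Tcrg-V1 in 13, Tcrg-V6 in 10 and Tcrg-V4 in 6. Trdv4 and Tcrg-V6 were rarer in the comparators, with 0 and 4 of 2232 NKT cells and 6 and 0 of 194 CD8αα T cells, where 0 allows up to 0.134% and 1.55% of cells with a UMI. Trgv2 and Tcrg-V1 were not rarer in CD8αα T cells, which held Trgv2 in 31.4% and Tcrg-V1 in 11.9%. NKT cells held them in 12.1% and 4.30%, and CD4 T cells in 1.36% and 0.545%.

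The γδ T cells were divided by 2 scavenger receptors. Cd163l1 and 5830411N06Rik are neighbours on the plus strand of chromosome 7 (chr7:140218267-140231145 and chr7:140247284-140300736), 16138 bases apart, and their transcripts are 70.5% identical over their alignment. Of the 192 cells, 70 held Cd163l1 alone, 72 held 5830411N06Rik alone, 8 held both and 42 neither. 5830411N06Rik was found in 8 of the 78 cells with Cd163l1 (10.3%, 4.53 to 19.2) and in 72 of the 114 cells without it (63.2%, 53.6 to 72.0). Of the 70 cells, 68 held at least 2 UMIs of Cd163l1, and of the 72 cells, 60 held at least 2 UMIs of 5830411N06Rik. Median depth was alike, with 2306.5 and 2300 UMIs a cell, and Scrublet marked 2 and 4 cells.

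**Figure D3:**
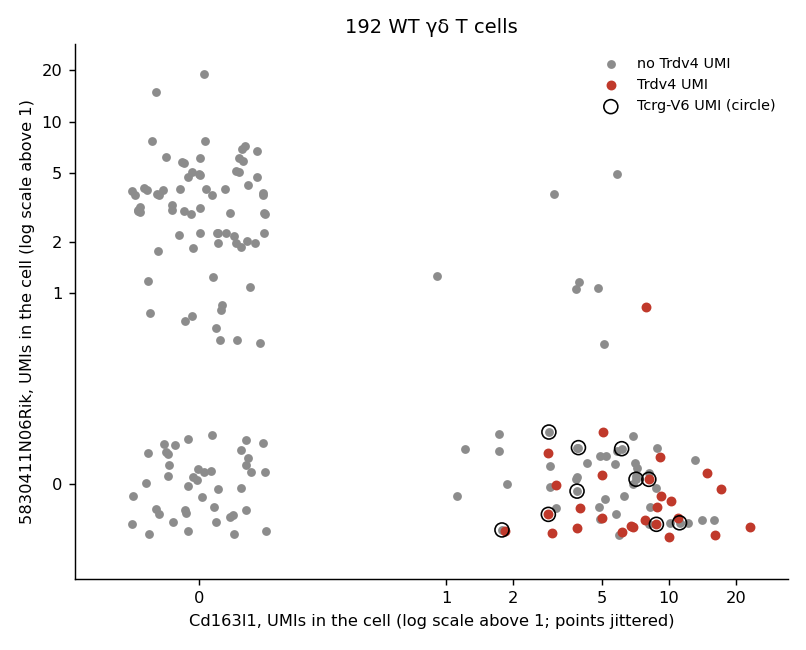
UMIs of Cd163l1 (horizontal axis) and 5830411N06Rik (vertical axis) in each of the 192 WT γδ T cells, on axes that are logarithmic above 1 with points jittered. Red points hold a Trdv4 UMI and circles a Tcrg-V6 UMI. The cells lie along the axes, 70 along the first and 72 along the second, and 26 of the 27 Trdv4 cells lie among the 70.

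The delta segment went with the scavenger receptor. Trdv4 was found in 26 of the 70 Cd163l1 cells, 37.1% (25.9 to 49.5), and in 0 of the 72 5830411N06Rik cells, which allows up to 4.17% of cells with a UMI, with the remaining cell holding both receptors. Tcrg-V6 was found in 10 of the 70 cells and 0 of the 72. Trgj1, a γ joining segment, was found in 5 and 0 cells, and Trdv5, another δ segment, in 0 and 3. In mice the chains Vγ6 and Vδ1, encoded by Tcrg-V6 and Trdv4, are known as an invariant pair of type 17 γδ T cells. Pairing of these chains in single cells was not tested here. The same cells were set against each other for every gene with at least 50 UMIs in both groups together, of which 20 of 1334 (1.5%) were at least 2-fold higher in the Cd163l1 cells and 15 (1.12%) lower, the pair itself included. This grouping was chosen after the values had been seen.

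Il17a was higher in the Cd163l1 cells, with 512 against 182 CPM, a log2 ratio of 1.48 (0.91 to 2.10), and was found in 34 of 70 against 15 of 72 cells. Trdc and Tcrg-C1 were higher by 1.35 (1.11 to 1.61) and 1.33 (1.07 to 1.61) on the log2 scale, and a Trdc UMI was found in 68 of 70 against 54 of 72 cells. Nr1d1 reached 412 against 125 CPM, a log2 ratio of 1.70 (1.04 to 2.45). Tns4, a tensin at focal adhesions, reached 217 against 62.5 CPM, a log2 ratio of 1.76 (0.83 to 2.87). Rora was higher by 1.07 (0.63 to 1.53) and Gzmb by 1.36 (0.62 to 2.18). Of genes too sparse for a ratio, Npnt, a matrix protein, was found in 15 against 1 cells, Itgb4, an integrin chain of epithelial anchors, in 16 against 2, and Pdcd1 in 17 against 4. The CD279 (PD-1) antibody had medians of 0.95 and 0.57. The sparse genes Pxdc1, Ramp1 and Rgs10 leaned the other way, found in 3, 6 and 3 Cd163l1 cells and in 20, 19 and 17 5830411N06Rik cells. They were also higher in the γδ T cells without a Trdc UMI than in those with one, by 2.35, 2.05 and 1.77 on the log2 scale. Cells without a Trdc UMI were more common in the 5830411N06Rik group, and the part they have in this lean was not tested. The 5830411N06Rik cells were higher for other genes. Ly6a, which encodes the surface protein Sca-1, was at 122 against 552 CPM, a log2 ratio of -2.15 (-2.91 to -1.50). Lgals3, which encodes the lectin galectin-3, was at 134 against 521 CPM, a log2 ratio of -1.94 (-2.67 to -1.31). Fos, an immediate early gene, was at 707 against 2062 CPM, a log2 ratio of -1.54 (-1.84 to -1.25), and Tcf7 at 295 against 760.3 CPM, a log2 ratio of -1.36 (-1.85 to -0.90). Ccr6 was found in 37 of the 72 (51.4% (39.3 to 63.4)) and 18 of the 70 Cd163l1 cells (25.7% (16.0 to 37.6)), and CD103 antibody medians were 2.24 and 1.47. Sox13 did not separate the groups in this way, being found in 49 Cd163l1 cells and in 45 of the others. Of the 137 cells with a Trdc UMI, 68 held Cd163l1 alone, 54 held 5830411N06Rik alone, 7 both and 8 neither. Between these 68 and 54 cells, a comparison added after seeing the data, 24 of 1093 genes were at least 2-fold higher and 19 lower. The log2 ratios were then 0.85 (0.61 to 1.11) for Trdc and 0.86 (0.38 to 1.37) for Rora, inside the 2-fold limit, and 1.77 (1.09 to 2.57) for Il17a, 1.61 (0.88 to 2.47) for Nr1d1, -2.62 (-3.43 to -1.94) for Ly6a, -1.84 (-2.60 to -1.17) for Lgals3, -1.41 (-1.74 to -1.10) for Fos and -1.13 (-1.65 to -0.63) for Tcf7.

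The same 2 genes were counted in cells outside the WT class. Among cells of the WT library that the filtered table does not hold, which include cells of p40-/-IL-2Ra-/- mice, 176 had at least 2 Trdc UMIs, of which 13 held Cd163l1 alone, 17 held 5830411N06Rik alone, 2 both and 144 neither. Among such cells of the TG library, which include cells of IFN-γ ARE-Del-/- mice, 133 had at least 2 Trdc UMIs, with 5, 8, 0 and 120. The 17 TG γδ T cells gave 4, 5, 0 and 8. With so few cells holding either gene, these counts do not show whether the 2 genes exclude each other there. Trdv4 stood in 2, 4 and 1 of the Cd163l1 cells of these 3 sets and in 0 of the 17, 8 and 5 5830411N06Rik cells, where 0 allows up to 17.6%, 37.5% and 60% of cells with a UMI.

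The 55 γδ T cells without a Trdc UMI were compared with the 137 that had one. They were deeper, with medians of 3274 and 2201 UMIs a cell, and the part of depth in the values below was not tested. Their TCRβ antibody median was 1.87 against 0.85 in the cells with Trdc, 1.65 in NKT cells and 0.61 in B cells. Above the 95th percentile of the B cells, a centred log ratio of 1.70, lay 32 of the 55 cells (58.2%, 44.1 to 71.3) and 2 of the 137 (1.46%, 0.177 to 5.17), as did 45.5% of NKT cells and 90.3% of CD4 T cells. At least 1 TCRβ variable segment was read in 11 of the 55 cells and 1 of the 137. Trac, the α chain constant segment, was found in 41 and 51 cells, with 928 against 279.9 CPM, a log2 ratio of 1.73 (1.36 to 2.10). The CD5 antibody was 2.59 against 1.65, the CD3 antibody 0.56 against 1.21 and the CD4 antibody 0.48 against 0.58. The name γδ T cell is thus not borne out by TCRβ protein and Trdc mRNA in these 32 cells, and they are described here as members of the cluster.

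**Figure D4:**
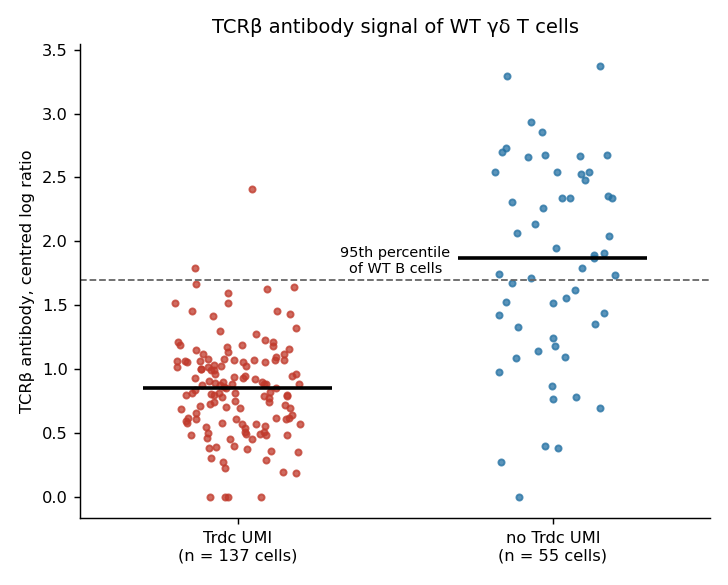
Centred log ratio of the TCRβ antibody (vertical axis) in each WT γδ T cell, for the 137 cells with and the 55 cells without a Trdc UMI. Black bars are medians (0.85 and 1.87) and the dashed line is the 95th percentile of WT B cells. In the second group 32 cells lie above the line, and in the first 2.

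Several type 17 genes were found on both sides. Blk was found in 40 of the 55 cells and 108 of the 137, Il1r1 in 31 and 64, and Il17a in 12 and 48. Others were rarer in the cells without Trdc, with Sox13 in 13 of 55 (23.6% (13.2 to 37.0)) against 97 of 137 (70.8% (62.4 to 78.3)), Kcnk1 in 4 and 26 and Cd163l1 in 3 and 75 cells. Over all genes with at least 50 UMIs, 36 of 1980 (1.82%) were at least 2-fold higher in the cells without Trdc and 87 (4.39%) lower. Higher genes included Icos, with 1413 against 324 CPM, a log2 ratio of 2.12 (1.80 to 2.46), Lck, with 506 against 109 CPM, a log2 ratio of 2.20 (1.65 to 2.80), and Ramp1, a subunit of the receptor for the neuropeptide CGRP, with 297 against 70.7 CPM, a log2 ratio of 2.05 (1.36 to 2.82). Satb1, a chromatin organiser of T cell development, was higher by 2.05 (1.40 to 2.77). Of the cells that held neither scavenger receptor, 25 of 42 lay above the TCRβ limit, against 2 of the 70 and 7 of the 72. When the γδ T cells were restricted to those with a Trdc UMI, the median log2 ratio of the type 17 list over NKT cells was 6.02. Of 8510 comparable genes, 669 were then at least 2-fold higher and 1034 lower. With those without a Trdc UMI alone, 722 of 8457 were higher and 1135 lower. Of the 578 genes higher with all γδ T cells, 484 were among the 669 and 361 among the 722.

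Cells with Trdc were also found outside the class. Among the WT cells of the filtered table, 336 held at least 2 Trdc UMIs, and 121 of them (36.0%, 30.9 to 41.4) were in the γδ T cell class. The other named classes with most of them were CD8αα T cells with 75, NKT cells with 71, NK cells with 29 and CD8αβ T cells with 29. B cells, which should lack Trdc, held 3 in 1494. None of the 75 CD8αα T cells and none of the 71 NKT cells held a UMI of Sox13, Il17a, Il1r1 or Il23r, which allows up to 4% and 4.23% of such cells with a UMI of each gene and does not limit the share that expresses it. Of the 71 NKT cells, 1 held Cd163l1 alone and 1 held 5830411N06Rik alone. Of the 192 γδ T cells, 110 held Sox13, 95 Il1r1, 60 Il17a and 39 Il23r. Of the 137 γδ T cells with a Trdc UMI, 97 held Sox13, 64 Il1r1, 48 Il17a and 27 Il23r. The cells had been clustered on mRNA that includes these genes, so their absence from the other classes describes the clustering and is no test. Of the 75 CD8αα T cells, 70 held Gzmb, 69 Fcer1g, an adaptor of activating NK receptors, and 60 Cd160, a receptor of cytotoxic cells. Trdv4 was found in 3 of these 75 cells and Tcrg-V1 in 13, whereas Tcrg-V6 was found in 0. The type 17 values above are those of the named class and not of all cells with Trdc. Without the Trdc-bearing cells among the CD8αα T cells, 281 genes in place of 264 were at least 2-fold higher in the γδ T cells and 263 in place of 359 lower, among 3200 in place of 3946 comparable genes.

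The 17 TG γδ T cells held 62364 UMIs in the library's own count table, with a median of 3125 a cell. Their values are given beside WT from the same kind of table, without a test. Trdc was found in 9 of 17 cells at 1716 CPM (1406 to 2073), an interval just above the 1392 CPM of WT. Sox13 was found in 7 cells at 305 CPM (183 to 476) and Il1r1 in 8 at 289 CPM (171 to 456), and each of these intervals holds the WT level. Blk was found in 10 cells at 738 CPM (540.0 to 984), Mmp25 in 14 at 609 CPM (431 to 836) and Il7r in 17 at 1876 CPM (1552 to 2248), likewise with the WT level inside. Il17a gave 12 UMIs that all came from 1 cell, so that 192 CPM (99.4 to 336) is the level of that cell's mRNA and its interval is too narrow. Maf was at 577 CPM (404 to 799), below the 1016 CPM of WT. Ifng and Xcl1 had no UMI, which allows up to 48.1 CPM (3 UMIs of the summed cells), above the 26.3 and 5.64 CPM of WT, so that a difference from WT was not detectable at this depth. Trac was found in 15 of 17 cells, against 92 of 192 WT cells (47.9%, 40.7 to 55.2). In WT it was found in 41 of the 55 cells without a Trdc UMI and 51 of the 137 with one. Median depth was 3125 UMIs a cell in TG and 2410 in WT, and its part in this was not tested.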

How the data were processed

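Liver CD45+ cells of TG and WT mice were captured with the BD Rhapsody system in 2 libraries. The authors aligned the reads to mm10 with STAR in the BD pipeline and deposited UMI counts of 13528 genes and 49 antibodies for 11929 filtered cells, centred log ratios of the antibodies (natural log, per cell, deposited by the authors) and a cell table with genotype, cell type and the percent of mitochondrial UMIs that the authors had computed. The libraries' own deposited count tables held 10026 and 24111 cells. In the filtered table, genes seen in under 10 cells of a genotype are set to 0 there. The libraries shared 267 cell indices, 1 of them that of a γδ T cell. No doublet filter was named, so Scrublet was run in each genotype (scanpy 1.11.5, 5% expected) and used only as an alternative.

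Counts were summed over a class, and CPM values carry exact Poisson intervals. Log2 ratios, with 0.5 UMIs added to each sum, carry exact conditional binomial intervals, and shares carry Clopper-Pearson intervals, all at 95% and for counting error only. Genes with at least 50 UMIs in both sums were compared. The ratios and intervals were run on simulated Poisson counts, the model that the intervals assume. This checked the arithmetic and left out the spread between cells. Thinned cells kept 1000 UMIs. No cell of the classes compared held fewer, so none was left out. Named genes were the 10 highest and 5 lowest ratios of each WT comparison among genes found in 10% of the cells of the higher class and with under 50% of their UMIs in 3 cells, the 20 genes with the largest smallest ratio over the 3 comparators, the listed genes and the receptor segments. Some genes of the comparisons within the γδ T cells and all motif searches fall outside this rule, and those genes were chosen after their values had been seen. A pair of listed genes is not reported here by name. The members and gene lists were chosen with earlier results of these data known. Promoter windows came from RefSeq, gene positions and transcripts from GENCODE, in a build of the same coordinates as mm10. Alternatives comprised scaling (edgeR 4.0.16 TMM), totals, minimum counts, thinning and membership.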

Additional observations from a re-analysis of the deposited data

Results flagged for a closer look

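Cells outside the comparisons held Trdc. Of the WT library's cells with no genotype name, which include cells of p40-/-IL-2Ra-/- mice, 176 of 16829 (1.05%, 0.898 to 1.21) had at least 2 Trdc UMIs, against 0.201% of WT B cells. Of the TG library's cells with no genotype name, which include cells of IFN-γ ARE-Del-/- mice, 133 of 5379 (2.47%, 2.07 to 2.92) did, against 0 of 1068 TG B cells. In the WT library 10 of the 176 cells held Sox13 and 4 Il17a, whereas 90 held Gzmb and 62 Ifng. In the TG library 11 of the 133 held Sox13 and 4 Il17a, whereas 97 held Gzmb and 75 Ifng. Their genotype is not given cell by cell, so no comparison was made.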

How the results depend on the processing

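With 1 library for each genotype no replicate could be left out, and the intervals leave out the spread between mice. No paired analysis was possible because each group is 1 library. The counts of genes at least 2-fold higher than in NKT, CD8αα and CD4 T cells (578, 264 and 405) stayed within 1.5 times under TMM, other totals, per-cell means, thinning and 3 changes of membership, and under alternatives added after seeing the data. With no minimum count they were 2437, 2003 and 1989, and with a minimum of 100 UMIs they were 372, 144 and 206; the cause was not tested. The counts of genes at least 2-fold lower (843, 359 and 290) stayed within 1.5 times under the same settings except over CD4 T cells when thinned (488), and were 1310, 2124 and 1070 with no minimum and 612, 189 and 172 with 100 UMIs. The type 17 and type 1 medians over NKT cells stayed between 5.44 and 6.02 and between -2.56 and -1.81. The share of γδ T cells was 4.60% of the T cells in place of 2.64% of all cells. Thinning lowered the share with a Trdc UMI to 58.3% and the share with both programmes to 72.9%, and the defining genes of each list gave 19.3%. Unnamed cells of the WT library with Trdc were 2.01% at 1 UMI and 0.814% at 3. Of 1652 log2 ratios over NKT cells recomputed for 189 named genes, 1542 were counted as staying in their main interval. These included 189 with no minimum count and 162 with a minimum of 100 UMIs, settings that leave a ratio unchanged. A gene with an unbounded main interval was counted as staying unless a 2-fold call changed sign. Another 107 left their main interval with the same sign or under 2-fold. The other 3 changed sign: Klra7 (0.48 when thinned), Cd79a (-0.31 without Scrublet cells) and Gzma (-0.14 without cells holding markers of other types). A UMI of Il17f, Il22 or a variable segment in few cells is limited by depth, and its absence from a cell is not evidence that the cell lacks the gene's mRNA.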

Other observations

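Further genes of the type 17 list included channel, adhesion and receptor genes. Tmem176a and Tmem176b, which encode related membrane proteins, were found in 155 and 138 of the 192 WT γδ T cells, at 783 (709.7 to 862) and 587 (524 to 656) CPM, and were 3.44 (3.25 to 3.64) and 2.79 (2.58 to 2.99) over NKT cells on the log2 scale. Aqp3, a channel for water and glycerol, was at 211 (174 to 254) CPM against 3.63 in NKT and 32.9 in CD4 T cells. Jaml, an adhesion receptor for epithelia, was at 687 (618 to 761) CPM and was 2.91 (2.72 to 3.10) over NKT cells. Kcnk1, a potassium channel, was found in 30 γδ T cells and in no cell of the 3 comparators. Ltb4r1, a receptor for leukotriene B4, was at 73.4 (52.2 to 100.4) CPM against 1.82 in NKT cells.

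Other receptors, enzymes and cytokines were read as follows. Tnfrsf25, the receptor of the cytokine TL1A, was found in 50 γδ T cells at 122 (94.4 to 156) CPM, against 33.8, 1.82 and 43.7 in NKT, CD8αα and CD4 T cells. Hk2, the first enzyme of glucose use, had 20 UMIs in 11 cells, 37.7 (23.0 to 58.2) CPM, against 3.33 in NKT cells, and was under the minimum of 50 UMIs in both sums. Csf2, which encodes the cytokine GM-CSF, was at 20.7 (10.3 to 37.1) CPM, close to the 21.4 CPM of NKT cells and above the 1.03 CPM of CD4 T cells. The cycling genes Mki67 and Top2a summed to 86.6 CPM (63.4 to 116) in γδ T cells, 24.7 in NKT cells, 21.8 in CD8αα T cells and 53.4 in CD4 T cells, and 8 γδ T cells (4.17%) held at least 2 of their UMIs.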
